A study of Rattus norvegicus with 9 samples.

Results

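Rat striatum was profiled by small RNA sequencing after oral manganese dosing for 8 weeks, and the 8 miRNA entries described here are those known from the choroid plexus. They were chosen by name and are rno-miR-204-5p, rno-miR-204-3p, rno-miR-211-5p, rno-miR-211-3p, rno-miR-448-3p, rno-miR-448-5p, rno-miR-1298 and rno-miR-1912-3p, written below without the rat prefix. All 8 were present among the 764 miRNA entries, and the 1759 small RNA entries in all, of each of the 9 libraries. Each group had 3 libraries. The MMT group received methylcyclopentadienyl manganese tricarbonyl, an organic fuel additive, at 4 mg/kg, or roughly 1 mg/kg of manganese, dissolved in corn oil. The MnCl2 group, the positive control, received manganese chloride tetrahydrate at 200 mg/kg in saline at 10 ml/kg, and controls received only corn oil, at 1 ml/kg. Doses went into the stomach once daily on 6 days a week, in rats aged 8 weeks at the start. The series had 18 rats, 3 of each sex in each group. The labels do not state the strain, which sex each library came from or whether rats were pooled. The p-values therefore cover the variation among these 9 libraries only, part of which may be technical.

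The choroid plexus is the epithelium within the brain ventricles that makes cerebrospinal fluid and forms the barrier between blood and that fluid. The lateral ventricle, which holds such tissue, borders the striatum. miR-204 lies in an intron of Trpm3, a cation channel gene that is strongly expressed in the choroid plexus and in the retinal pigment epithelium. miR-211 is its close relative and lies in Trpm1, a channel gene known from melanocytes and retinal cells. The gene Htr2c encodes a serotonin receptor that is abundant in choroid plexus epithelium and is also made by neurons. In the RefSeq annotation of the GRCr8 assembly, Mir448, Mir1298, Mir1912 and Mir764 lay within Htr2c on chromosome X, Mir204 within Trpm3 and Mir211 within Trpm1, both on chromosome 1. A miRNA hairpin yields a 5p and a 3p strand, and usually 1 of them is kept by the silencing complex while the other is degraded.

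The mature sequences are shown because the strands of 1 hairpin, and the relatives miR-204-5p and miR-211-5p, behaved unlike each other. They are taken from RefSeq with build GRCr8, which matched all 8 members by name and equalled the deposited sequence in each case. Capitals mark the seed, bases 2 to 8 from the 5′ end.
miR-204-5p: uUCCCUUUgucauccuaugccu
miR-211-5p: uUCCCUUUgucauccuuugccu
miR-204-3p: gCUGGGAAggcaaagggacguu
miR-211-3p: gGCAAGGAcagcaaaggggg
miR-448-3p: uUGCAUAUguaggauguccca
miR-448-5p: aACAUCCUgcauagugcugcca
miR-1298: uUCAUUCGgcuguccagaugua
miR-1912-3p: cACAGAACaugcagugaga
The seed UCCCUUU was shared by miR-204-5p and miR-211-5p, and no seed of a member occurred in any further miRNA entry. Along their 22 bases miR-204-5p and miR-211-5p differed by the single substitution A17U, counted from the 5′ end of miR-204-5p. They shared a run of 16 bases, and no other pairing of a member with an entry shared a run of that length or its complement. The hairpins of miR-204 and miR-448, with both mature strands in capitals, show which strands come from 1 transcript.
Mir204: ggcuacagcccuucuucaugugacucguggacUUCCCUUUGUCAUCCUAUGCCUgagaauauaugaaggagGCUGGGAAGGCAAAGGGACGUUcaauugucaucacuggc
Mir448: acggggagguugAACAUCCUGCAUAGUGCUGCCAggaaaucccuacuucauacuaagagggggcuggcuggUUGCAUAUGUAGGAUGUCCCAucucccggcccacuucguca

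The shallowest library, control 3, had 583045 counts in total and the deepest, control 1, had 2012769. Levels are given as CPM, counts relative to a library total that was scaled by TMM, and 1 count was worth 0.556 CPM in control 1 and 1.52 CPM in control 3. Together the members held 0.0724% to 0.553% of a library's miRNA counts. The neuronal markers miR-124-3p, miR-128-3p, miR-137-3p, miR-138-5p and miR-218a-5p summed to between 32274 and 43314 CPM in every library. Since tissue was sequenced in bulk, fewer cells of a type and less RNA per cell cannot be told apart. Differences between groups were tested with edgeR's quasi-likelihood test over all entries that passed a low-count filter, with Benjamini-Hochberg adjustment.

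Among the members, miR-204-5p, the kept strand of the Trpm3 hairpin, was the most abundant. It stood at 238, 201 and 1922 CPM in the MMT libraries, at 1146, 224 and 367 CPM in the MnCl2 libraries and at 348, 1031 and 709 CPM in the control libraries. MMT 3 was highest, MnCl2 1, control 2 and control 3 followed, and every group held both high and low libraries, so all groups overlapped. By rank among miRNAs it was the 56th most abundant in MMT 3 and the 146th in MMT 2. The group means were 787 ± 983 CPM in MMT, 579 ± 496 CPM in MnCl2 and 696 ± 342 CPM in control (SD, n = 3 each). These group means differed from each other by less than the SD of any group.

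The Htr2c strand miR-448-3p had the same order of high libraries. It stood at 87.8, 105 and 654 CPM in MMT, at 359, 57.7 and 134 CPM in MnCl2 and at 66.8, 335 and 281 CPM in control libraries. miR-1298, from the same host gene, was at 69.9, 95.4 and 1196 CPM in MMT, at 698, 67.5 and 111 CPM in MnCl2 and at 41.7, 525 and 391 CPM in control libraries. For both, as for miR-204-5p, the descending order began with MMT 3, MnCl2 1, control 2 and control 3. The highest library exceeded the lowest 28.7-fold for miR-1298, 11.3-fold for miR-448-3p and 9.57-fold for miR-204-5p. Of the high libraries, MMT 3 had 1543987 counts, MnCl2 1 had 753383, control 2 had 1006283 and control 3 had 583045. The part of depth in these levels was not tested.

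The remaining members were scarce and did not share this order of libraries. miR-1912-3p, also from Htr2c, was at 24.7, 33.9 and 39.8 CPM in MMT, at 53.9, 48.9 and 26.2 CPM in MnCl2 and at 9.46, 35.2 and 51.7 CPM in control libraries. miR-448-5p was at 19.6, 47.7 and 57.6 CPM in MMT, at 62.2, 60.6 and 48.3 CPM in MnCl2 and at 32.3, 43.0 and 35.0 CPM in control libraries. Its MnCl2 libraries all lay above its control libraries. miR-211-5p was at 21.3, 18.8 and 13.5 CPM in MMT, at 26.3, 19.6 and 24.1 CPM in MnCl2 and at 7.79, 18.6 and 27.4 CPM in control libraries. The strand miR-204-3p had 8, 10 and 4 counts in MMT, 12, 10 and 15 in MnCl2 and 9, 13 and 4 in control libraries. miR-211-3p had 6, 11 and 2 counts in MMT, 5, 11 and 6 in MnCl2 and 5, 2 and 3 in control libraries, and it did not pass the filter. At such counts the intervals from counting alone are wide, and MMT 2 and MMT 3 differed in miR-204-3p (12.6 CPM, interval 6.02 to 23.1, and 2.84 CPM, interval 0.774 to 7.28; exact Poisson, 95%) with intervals that overlapped. These intervals cover counting error only.

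**Figure D1:**
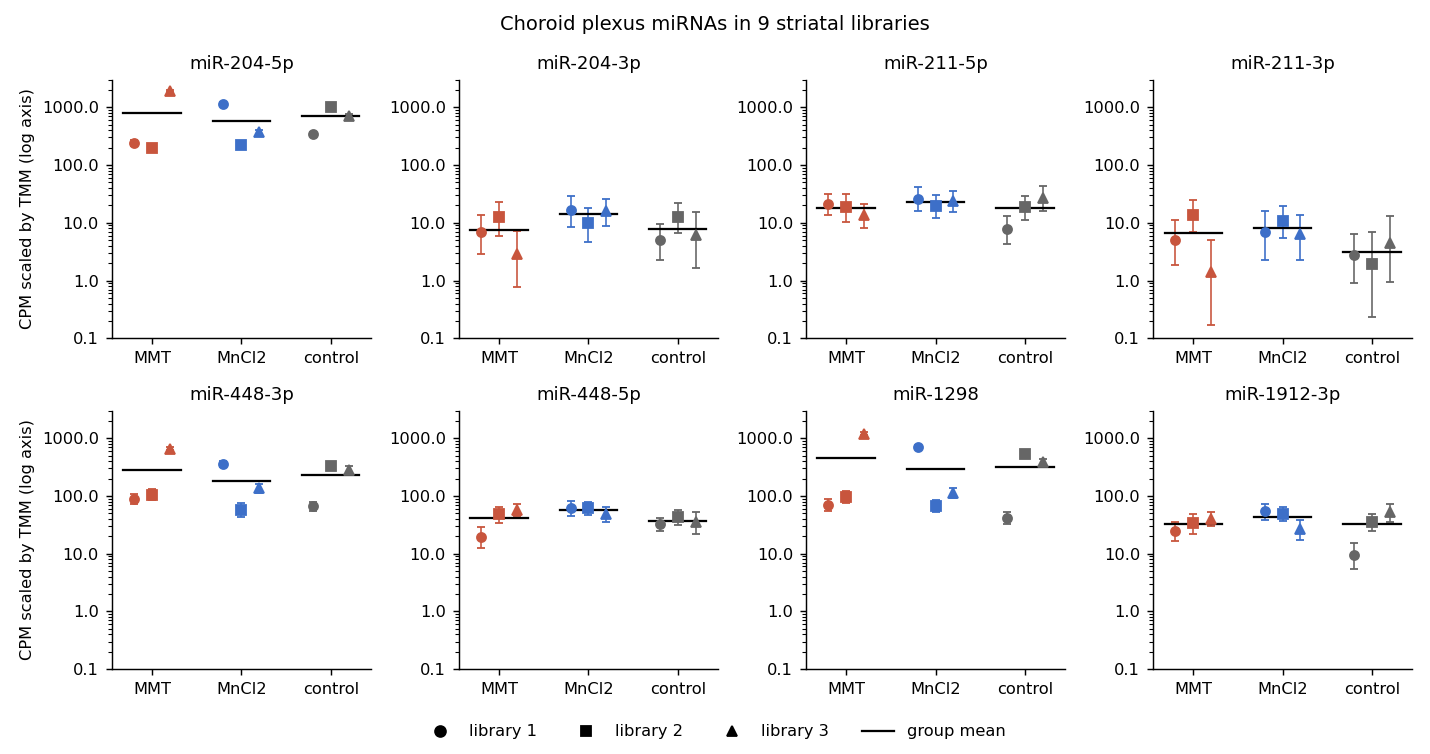
Level of each choroid plexus miRNA (CPM scaled by TMM, log axis) in each library of the MMT, MnCl2 and control groups. Points are libraries with exact 95% Poisson intervals of the count and bars are group means. miR-204-5p, miR-448-3p and miR-1298 are highest in MMT 3, at 1922, 654 and 1196 CPM, and have high and low libraries in each group.

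The comparison of MMT with control asked whether the organic compound, given in the vehicle of the controls, was accompanied by a difference in these miRNAs. None was detected. Of the 7 members that passed the filter, 6 had positive and 1 had negative log2 fold changes, and 0 passed the test, against 0 of 1113 entries called (0%). The median over the 7 was 0.18, against 0.01 over all 1113 entries and 0.04 over the 615 miRNAs tested. For miR-204-5p the log2 fold change was 0.19 (SE 1.02), for miR-448-3p 0.35 (SE 1.03) and for miR-1298 0.54 (SE 1.45), each with an edgeR adjusted p of 1. Their sign rested on MMT 3, without which the values were -1.66, -1.22 and -1.94, and 5 of the 7 members were negative. Without control 1, 5 of the 7 were negative as well, and without control 2 all 7 were positive. The scarce members stood at 0.18 (SE 0.38) for miR-448-5p, 0.08 (SE 0.54) for miR-1912-3p, 0.04 (SE 0.49) for miR-211-5p and -0.15 (SE 0.69) for miR-204-3p, of which miR-1912-3p and miR-211-5p turned negative with total-count scaling (-0.03 and -0.04) or with miRNAs scaled alone (-0.05 and -0.09). None of the 7 separated the groups without overlap, against 4.58% of entries. At an unadjusted p under 0.05, edgeR had 24 entries (2.16%) and DESeq2, which also called 0, had 23 (2.07%), and no member was among those of edgeR.

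MnCl2 differs from control in vehicle as well as compound, which cannot be told apart. Here 4 of the 7 members were positive and 3 were negative, and 0 passed, against 0 of 1113 entries called (0%). The positive ones were the scarce miR-204-3p, with a log2 fold change of 0.82 (SE 0.67), miR-448-5p, with 0.63 (SE 0.38), miR-1912-3p, with 0.46 (SE 0.54), and miR-211-5p, with 0.43 (SE 0.50). The abundant strands were at -0.27 (SE 1.02) for miR-204-5p, -0.31 (SE 1.05) for miR-448-3p and -0.13 (SE 1.47) for miR-1298. The edgeR adjusted p-values ran from 0.843 to 0.996. The median over the 7 was 0.43, against 0.06 over all entries and 0.23 over the miRNAs tested. miR-448-5p, at 57.0 ± 7.62 CPM in MnCl2 and 36.8 ± 5.60 CPM in control libraries (SD, n = 3 each), was the 1 member of 7 whose groups did not overlap, against 9.7% of entries, and its edgeR adjusted p was 0.843. The untested miR-211-3p did not overlap in CPM either, at 6.30 to 10.8 in MnCl2 and 1.96 to 4.56 in control libraries. The 9.7% does not cover untested entries. Its raw counts did overlap, with 5 in both MnCl2 1 and control 1. miR-211-3p had only 2 to 11 counts per library. At an unadjusted p under 0.05, edgeR had 51 entries (4.58%), none of them a member, and DESeq2, which also called 0, had 69 (6.2%). These values moved with single libraries. Without MnCl2 1 the values were -1.23 for miR-204-5p, -1.23 for miR-448-3p and -1.82 for miR-1298, and without control 1 they were -0.60, -0.77 and -0.67, with 4 of the 7 members negative. Without control 2 or without MnCl2 2 all 7 were positive, and without MnCl2 3 miR-1298 was at 0.25. Both comparisons use the same control libraries, so their values are not independent.

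MMT and MnCl2 libraries differ in vehicle and dose as well as compound, which cannot be told apart. Set directly against MnCl2, the MMT libraries had 3 positive and 4 negative members, and 0 passed (edgeR adjusted p 0.981 to 0.986), against 0 of 1113 entries called (0%). The log2 fold changes were 0.67 (SE 1.46) for miR-1298, 0.65 (SE 1.04) for miR-448-3p and 0.46 (SE 1.02) for miR-204-5p, and -0.96 (SE 0.67) for miR-204-3p. The others stood at -0.45 (SE 0.37) for miR-448-5p and at -0.38 for both miR-1912-3p (SE 0.54) and miR-211-5p (SE 0.49). Without MMT 3 all 7 were negative, and without MnCl2 1 miR-204-5p was at 1.43, miR-448-3p at 1.59 and miR-1298 at 2.37. No member separated the groups, against 9.07% of entries, and at an unadjusted p under 0.05 edgeR had 22 entries (1.98%), none of them a member, and DESeq2, which also called 0, had 34 (3.05%).

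The abundant strands varied widely between libraries of the same group. Over the 9 libraries the SD of log2 CPM was 1.73 for miR-1298, which was the largest of all 1113 entries tested. It was 1.22 for miR-448-3p and 1.18 for miR-204-5p, with 11 and 14 of the 615 miRNAs tested above them. The median SD over those miRNAs was 0.42, and their 90th percentile was 0.98. Counting alone would give an SD of 0.07 for miR-204-5p and 0.13 for each of miR-448-3p and miR-1298. The scarce members lay nearer the median, at 0.50 for miR-211-5p, 0.51 for miR-448-5p, 0.67 for miR-204-3p and 0.71 for miR-1912-3p, where counting alone would give 0.33, 0.23, 0.52 and 0.26. The counting values come from raw counts, without the prior count of 2 that the observed SDs include. For the scarce members the observed and counting values are therefore not on the same scale.

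**Figure D2:**
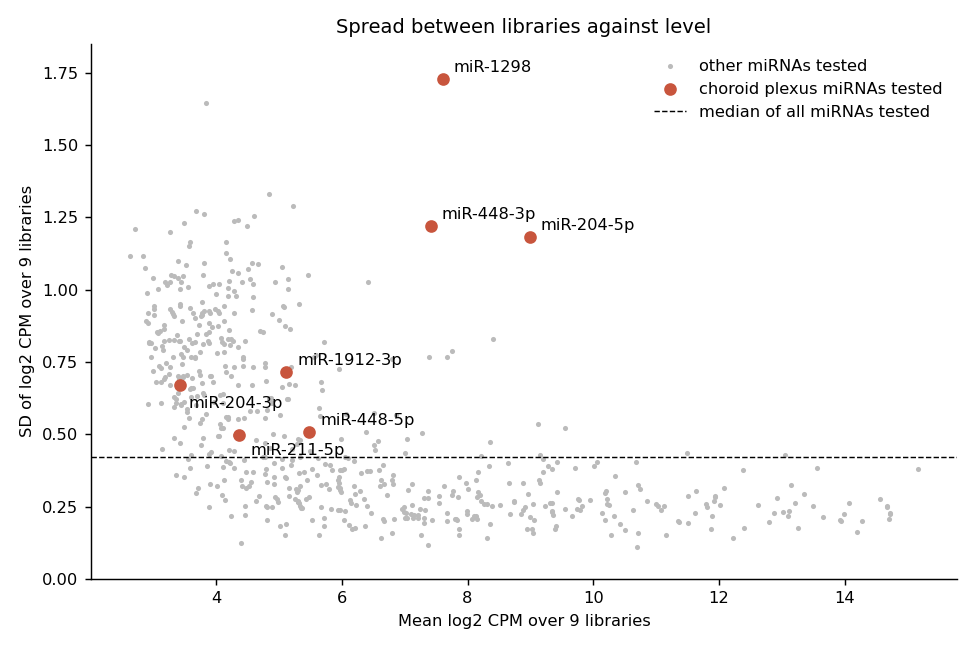
SD of log2 CPM over the 9 libraries against mean log2 CPM for the 615 miRNAs tested, with the 7 members tested in red and the median of all as a dashed line. miR-1298 lies at 1.73, above every other point, and miR-448-3p and miR-204-5p at 1.22 and 1.18, while the median is 0.42.

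The ratios between the abundant strands varied less than their levels, though by more than counting alone would give. The count of miR-448-3p divided by that of miR-204-5p was 0.369, 0.525 and 0.340 in MMT, 0.314, 0.258 and 0.366 in MnCl2 and 0.192, 0.324 and 0.397 in control libraries. This ratio varied 2.74-fold over libraries in which miR-204-5p itself varied 9.57-fold. Its log2 had an SD of 0.40, the smallest among the 28 pairs of members, where counting alone would give 0.15. The ratio of miR-1298 to miR-204-5p was 0.294, 0.475 and 0.622 in MMT, 0.609, 0.301 and 0.303 in MnCl2 and 0.120, 0.509 and 0.552 in control libraries. It varied 5.19-fold with an SD of its log2 of 0.76, and was lowest in control 1, where the ratio of miR-448-3p was lowest as well. Between miR-448-3p and miR-1298 the ratio varied 3.11-fold, with an SD of 0.58.

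By pattern over the 9 libraries, the entries nearest to miR-204-5p included its Htr2c companions and strands of the miR-34 family. Likeness was measured as the root mean square difference of log2 CPM after each entry was centred on its own mean, over the 1039 other entries with a mean of at least 10 CPM. The nearest was miR-448-3p at 0.38, followed by miR-34c-5p at 0.58, miR-34b-5p at 0.63, miR-1298 at 0.70 and miR-551b-3p at 0.72. The sixth stood at 0.80, the median over all entries was 1.16, and an entry with no variation would have stood at 1.11. In mouse, miR-34b and miR-34c are known from multiciliated epithelia, where they act in the formation of motile cilia. miR-34c-5p was at 136, 166 and 403 CPM in MMT, at 393, 116 and 181 CPM in MnCl2 and at 91.3, 316 and 251 CPM in control libraries. miR-551b-3p was at 637, 438 and 1282 CPM in MMT, at 1215, 619 and 751 CPM in MnCl2 and at 614, 1014.5 and 609 CPM in control libraries. Its 3 highest libraries were MMT 3, MnCl2 1 and control 2, but in control 3 it was the lowest of its group. The other members were no nearer to miR-204-5p than a flat entry or little nearer, with miR-448-5p at 1.04, miR-1912-3p at 1.07 and miR-211-5p at 1.20, and miR-204-3p and miR-211-3p were below 10 CPM.

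**Figure D3:**
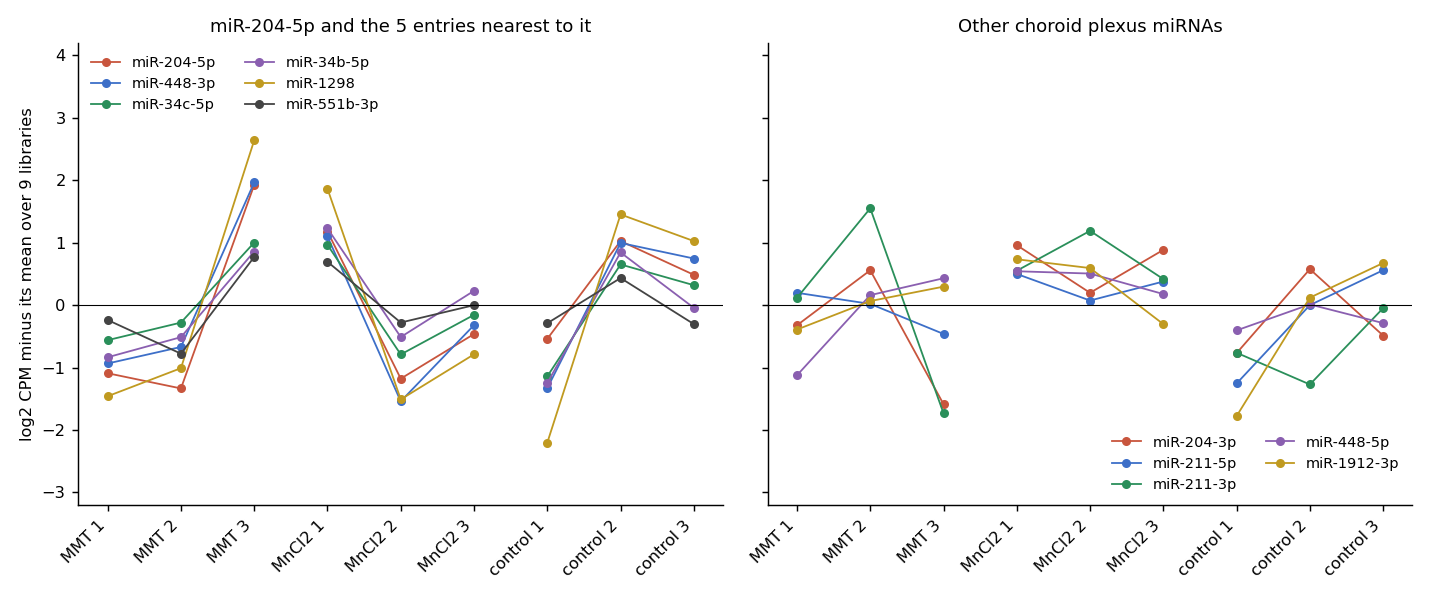
log2 CPM of each miRNA minus its own mean over the 9 libraries, by library, for miR-204-5p with its 5 nearest entries (left) and for the other choroid plexus miRNAs (right). Lines join libraries of a group only to guide the eye. On the left all 6 lie above their mean in MMT 3, MnCl2 1 and control 2 and below it in MMT 1, MMT 2, MnCl2 2 and control 1, and on the right miR-204-3p and miR-211-3p lie below their mean in MMT 3.

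Strands of 1 hairpin had unlike patterns. In MMT 3 there were 2705 counts of miR-204-5p and 4 of miR-204-3p, whereas MMT 2 had 160 and 10. The 3p strand thus made up 0.148% of both strands in MMT 3 (exact 95% binomial interval 0.0402% to 0.378%) and 5.88% in MMT 2 (2.86% to 10.6%). The other libraries ran from 0.851% in control 3 to 4.18% in MnCl2 2. For miR-448, whose 3p strand is usually the more abundant, the ratio of the 3p to the 5p count was 4.48, 2.21 and 11.4 in MMT, 5.78, 0.952 and 2.78 in MnCl2 and 2.07, 7.77 and 8.04 in control libraries. In MnCl2 2 the 5p strand had 62 counts and the 3p strand 59. The 3p share there was 48.8% (exact 95% binomial interval 39.6% to 58.0%), so neither strand can be called the more frequent.

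The relative miR-211-5p, which differs from miR-204-5p by A17U, had between 14 and 25 counts in every library. In MMT 3 it had 19 counts beside 2705 of miR-204-5p, and in MMT 2 it had 15 beside 160. As a share of the miR-204-5p count this was 0.702% in MMT 3 and 9.38% in MMT 2. Whether reads crossed between these 2 entries was not tested. The scarce members had similar raw counts in libraries of unlike depth, as did other scarce miRNAs. The 371 miRNAs with a mean under 20 counts summed to between 2333 and 5031 counts in each library. They made up 1298 CPM in control 1 and 1922 CPM in MMT 3, which were the deepest libraries, and 2644 to 4920 CPM in the other 7. The part of this in the levels of the scarce members was not tested.

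**Figure D4:**
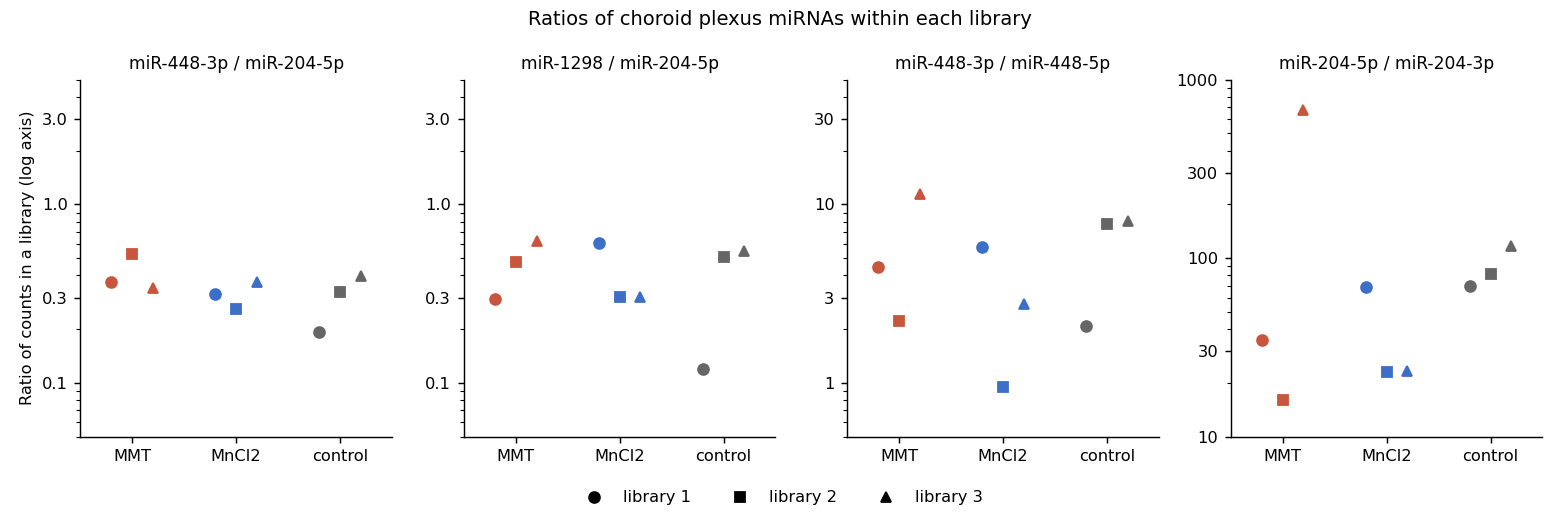
Ratio of the counts of a pair of miRNAs in each library (log axes) for the MMT, MnCl2 and control groups. The left and second panels span 0.192 to 0.525 and 0.120 to 0.622, and the arm ratio of miR-204 on the right runs from 16 in MMT 2 to 676 in MMT 3.

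Ratios within a library need no scaling, and 4 of them were compared between groups on the log2 scale with 0.5 added to each count. In an exact two-sided permutation test none of the 12 comparisons differed (lowest p = 0.2, adjusted p = 1 for each). With 3 libraries a group the smallest p that such a test can give is 0.1. The log2 ratio of miR-204-5p to miR-204-3p was 6.07 ± 2.79 in MMT, 5.0 ± 0.91 in MnCl2 and 6.34 ± 0.33 in control libraries (SD, n = 3 each; exact permutation p = 1 for MMT against control and 0.2 for MnCl2 against control). That of miR-211-5p to miR-211-3p was 1.79 ± 1.28 in MMT, 1.5 ± 0.58 in MnCl2 and 2.25 ± 0.79 in control libraries. That of miR-211-5p to miR-204-5p was -4.65 ± 2.14 in MMT, -4.26 ± 1.01 in MnCl2 and -5.28 ± 0.57 in control libraries. The 4 Htr2c members summed against miR-204-5p gave 0.09 ± 0.37 in MMT, -0.03 ± 0.14 in MnCl2 and -0.42 ± 0.70 in control libraries.

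Of the other miRNAs of Htr2c, 3 were among the entries. miR-764-3p ran from 8.52 to 32.7 CPM in MMT, from 11.1 to 28.3 CPM in MnCl2 and from 12.7 to 45.6 CPM in control libraries. miR-764-5p ran from 9.24 to 35.2 CPM in MMT, from 11.5 to 30.3 CPM in MnCl2 and from 3.90 to 35.0 CPM in control libraries, and miR-1912-5p from 7.67 to 18.8, from 19.4 to 22.5 and from 2.78 to 30.4 CPM in the same order of groups. Their sum was highest in control 3, at 111 CPM, which was also among the 4 highest libraries of miR-448-3p and miR-1298. In the other high libraries of those strands the sum was 42.6 CPM (MMT 3), 42.9 CPM (MnCl2 1) and 39.1 CPM (control 2). It was higher in MMT 2, at 86.7 CPM, and in MnCl2 2, at 75.3 CPM, and lowest in control 1, at 20.0 CPM. These 3 entries rest on 5 to 34 counts per library. All 3 passed the filter, and 0 passed the edgeR test in any comparison.

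Marker lists of other cell types were summed per library to see which varied alongside. The 8 multiciliated miRNAs (miR-34b, miR-34c, miR-449a and miR-449c, both strands, led by miR-34c-5p and miR-34b-5p) summed to 223, 304 and 564 CPM in MMT, to 657, 240 and 307 CPM in MnCl2 and to 155, 476 and 406 CPM in control libraries. The 4 highest libraries of this sum were those of miR-204-5p, though with MnCl2 1 above MMT 3. The sum was carried by miR-34c-5p and miR-34b-5p, and the scarcer strands of the list were mixed in MMT 3. Low there were miR-34b-3p at 13.5 CPM, miR-449c-5p at 10.7, miR-34c-3p at 5.68 and miR-449a-3p at 3.55. miR-449a-5p went the other way, at 35.5 CPM in MMT 3, below only MnCl2 1 at 66.4 CPM. miR-449c-3p was at 1.42 CPM in MMT 3. The 5 epithelial miRNAs of the miR-200 family, led by miR-429 and miR-141-3p, had another order, with 58.0, 126 and 59.7 CPM in MMT, 174, 170 and 70.3 CPM in MnCl2 and 55.1, 61.6 and 94.3 CPM in control libraries. MMT 3, highest in miR-204-5p, was thus among the 3 lowest in this sum. The 3 lowest, control 1, MMT 1 and MMT 3, were also the 3 deepest libraries. The part of depth in this sum was not tested. The list was mixed in MMT 3, where miR-200a-3p was at 13.5 CPM, above its control libraries (5.87 to 7.61 CPM). miR-429, miR-141-3p, miR-200b-3p and miR-200c-3p were each among their 3 lowest there. The part of other cell types in the level of miR-204-5p was not tested.

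MnCl2 1 also stood highest in other lists. The 4 erythrocyte miRNAs, led by miR-451-5p and miR-144-5p, summed to 185 CPM there, and the 4 endothelial and smooth-muscle miRNAs, led by miR-143-3p and miR-126a-3p, to 30784 CPM. Elsewhere the erythrocyte sum ran from 81.8 to 87.9 CPM in MMT, from 72.4 to 97.6 CPM in the other two MnCl2 libraries and from 68.4 to 116 CPM in control libraries. Neuronal miRNAs, led by miR-128-3p and miR-218a-5p, varied 1.34-fold over the libraries, and oligodendrocyte miRNAs, led by miR-338-3p and miR-219a-5p, 1.69-fold. The choroid plexus members varied 8.22-fold in sum. No list held a miRNA at 0 in all 9 libraries, though 1 multiciliated, 2 epithelial and 1 erythrocyte miRNA had 0 counts in at least 1 library. No list member passed the edgeR test in any comparison, though without the low-count filter the epithelial miR-200a-3p did in MnCl2 against control (log2 fold change 2.48, SE 0.56, edgeR adjusted p = 0.0189). It stood at 53.9, 61.6 and 7.35 CPM in MnCl2 and at 6.68, 5.87 and 7.61 CPM in control libraries, so these groups overlapped. Its SD of log2 CPM over the 9 libraries, 1.65, was exceeded among miRNAs only by that of miR-1298. Median log2 fold changes of the multiciliated list were 0.07 for MMT against control, 0.41 for MnCl2 against control and -0.49 for MMT against MnCl2. Those of the epithelial list were larger, at 0.24, 1.17 and -0.93 for these comparisons. Over all miRNAs tested the medians were 0.04, 0.23 and -0.19. All 4 tested epithelial members were positive in MnCl2 against control and negative in MMT against MnCl2. The same held for the 4 endothelial and smooth-muscle miRNAs and the 3 erythrocyte miRNAs tested. The 4 oligodendrocyte miRNAs were also all positive in MnCl2 against control. MnCl2 against control and MMT against MnCl2 share the MnCl2 libraries, so opposite signs in them are not independent. How many of all miRNAs had each sign was not counted. The endothelial and smooth-muscle sum was 30784 CPM in MnCl2 1, against 15805 CPM in MnCl2 2 and 17725 CPM in MnCl2 3. The signs of these lists without MnCl2 1 were not examined. The erythrocyte list had medians of 0.03, 0.43 and -0.41 and the endothelial and smooth-muscle list 0.05, 0.34 and -0.28. The oligodendrocyte list stood at 0.30, 0.31 and -0.05 and the neuronal list at 0.09, 0.04 and 0.06.

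**Figure D5:**
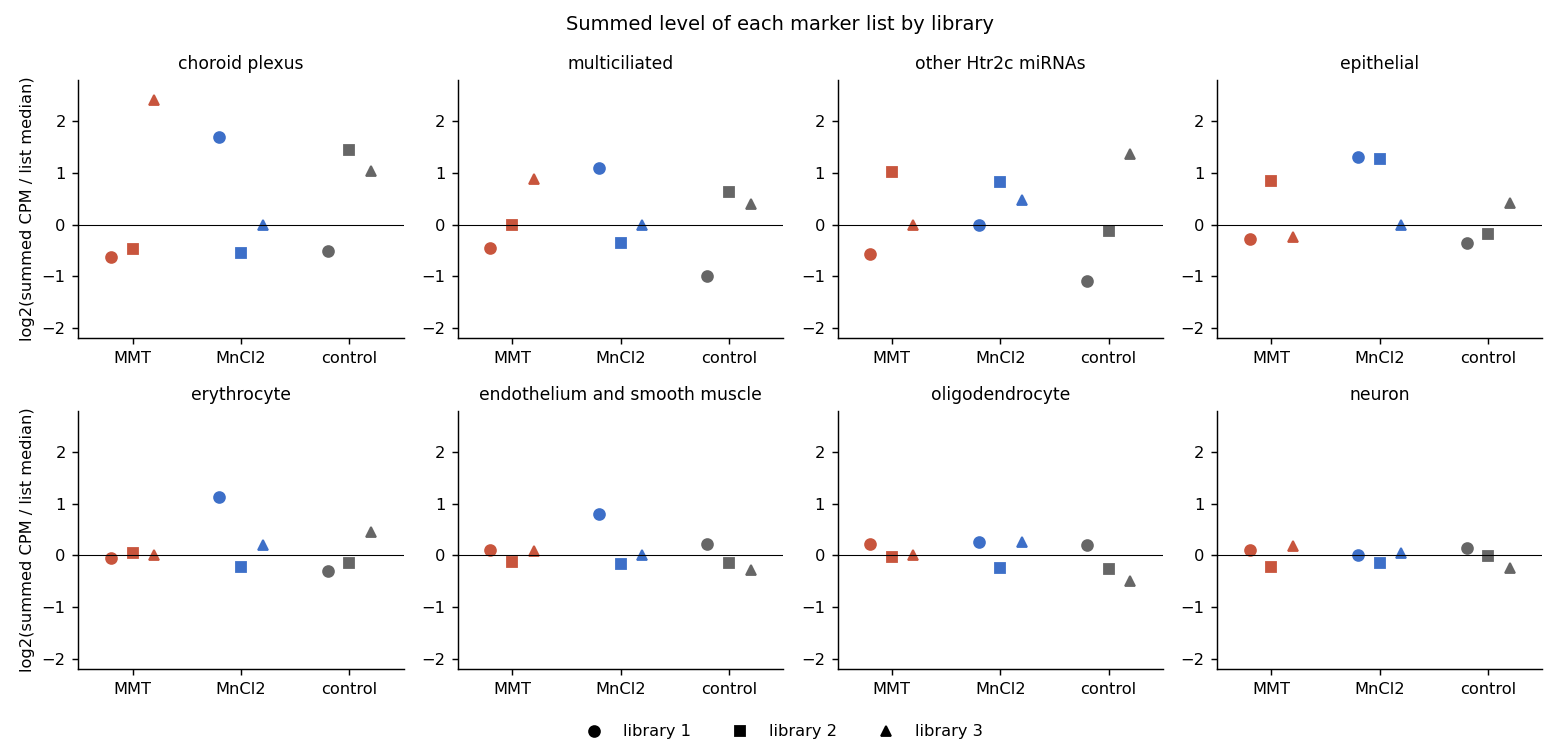
Summed CPM of each marker list in each library, as log2 of its ratio to the median over the 9 libraries, for the MMT, MnCl2 and control groups. The choroid plexus sum runs from 473 CPM in MMT 1 to 3887 CPM in MMT 3 and the multiciliated sum from 155 CPM in control 1 to 657 CPM in MnCl2 1, while the neuronal sum varies 1.34-fold.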

How the data were processed

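Per the labels' protocols, TRIzol RNA was run on a gel, fragments of 15 to 45 nucleotides were recovered and the QIAseq miRNA kit supplied the adapters. Trimmomatic and the build rn6 are named in the submitters' processing notes. How reads were aligned and counted, and whether molecular identifiers were used to remove PCR copies, is not given in the sources used here. The authors deposited raw counts, 1 column per library, without normalization. Groups and replicate numbers came from the sample titles.

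Of 1759 entries, 1113 passed the filterByExpr filter and were fitted in 1 model over the 9 libraries by the robust quasi-likelihood test of edgeR 4.0.16 (R 4.3.3), two-sided, after TMM scaling. Calls were made at a Benjamini-Hochberg adjusted p under 0.05. Standard errors are the log2 fold change divided by the root of the F statistic. Levels are CPM scaled by TMM. Spread and likeness used log2 CPM with a prior count of 2. Ratios of counts within a library were tested by exact permutation of the libraries (two-sided, 20 arrangements), with adjustment over the 12 tests. Confidence intervals of single values are exact, at 95%. Tables, intervals and figures were made in Python 3.11.15 (scipy 1.17.1, numpy 2.4.6, matplotlib 3.10.9, pandas 2.3.3).

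Entries named by rule were all members, the other Htr2c miRNAs, the 2 most abundant of each marker list and the 5 entries nearest to miR-204-5p. Further members of the lists, and miR-466b-3p, miR-466b-5p and miR-1b, were named outside this rule with their values known. The members, lists and tests were chosen with earlier results of these data known. The alternatives tried were scaling by total count, by RLE or on miRNAs alone, a fit by DESeq2 1.42.0, a filter of 10 CPM in 3 libraries or none, a fit to only the groups compared, leaving out libraries 1 at a time, a replicate block, log2 total as covariate and unweighted dispersions. Ratios were also tried with 1 added to each count and as shares in percent. RefSeq (GRCr8) gave sequences and host genes, and no coordinates are printed because the counts are on rn6. Libraries of 1 group differed beyond counting noise in every pair (chi-square per degree of freedom 14.4 to 48.2).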

Additional observations from a re-analysis of the deposited data

How the results depend on the processing

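Of 398 member fold changes under the alternatives none passed (adjusted p 0.444 to 1), and the count of called entries stayed at 0 in all but 1 of 57 values. Without the low-count filter 1 entry was called in MnCl2 against control, miR-200a-3p, which belongs to the epithelial marker list and was named after its values were seen (log2 fold change 2.48, SE 0.56, edgeR adjusted p = 0.0189). Its groups overlapped, as MnCl2 3, at 7.35 CPM, lay below control 3, at 7.61 CPM. The stricter filter left the same 1113 entries. Scaling miRNAs alone moved the miRNA median to -0.10 for MMT against control and -0.05 for MnCl2 against control, with member medians of 0.04 and 0.15.

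Signs of member fold changes reversed in 12 of 209 values that kept all libraries, each time without a call. In MMT against control these were miR-211-5p with total-count scaling (-0.044), miRNAs alone (-0.094) or the 2 groups alone (-0.0029) and miR-1912-3p with total-count scaling (-0.034) or miRNAs alone (-0.047). In MMT against MnCl2 it was miR-1912-3p with the log2 total as a covariate (0.011). With shares in percent, the ratio of miR-211-5p to miR-204-5p in MMT against MnCl2 turned to 0.35. With the replicate block, miR-204-5p (-0.38), miR-448-3p (-0.066) and miR-1298 (-0.15) reversed in MMT against control, miR-1298 (0.035) in MnCl2 against control, and miR-204-5p (-0.017) and miR-1298 (-0.19) in MMT against MnCl2. The block called 0 entries in each comparison, with 17, 42 and 15 at an unadjusted p under 0.05 in place of 24, 51 and 22. Same-numbered libraries did not deviate together (r -0.666 to 0.493 over 9 pairs), so the numbers are not taken to pair samples. The cause of these reversals was not tested.

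Leaving out 1 library moved the log2 fold changes in MMT against control between -1.66 and 0.68 for miR-204-5p, -1.22 and 0.80 for miR-448-3p, -1.94 and 1.20 for miR-1298, -0.70 and 0.35 for miR-204-3p, -0.34 and 0.48 for miR-211-5p, -0.15 and 0.52 for miR-448-5p, and -0.38 and 0.63 for miR-1912-3p. In MnCl2 against control the ranges were -1.23 to 0.12 for miR-204-5p, -1.23 to 0.13 for miR-448-3p, -1.82 to 0.46 for miR-1298 and -0.0050 to 0.93 for miR-1912-3p. In MMT against MnCl2 they were -1.39 to 1.43 for miR-204-5p, -0.92 to 1.59 for miR-448-3p and -1.81 to 2.37 for miR-1298. For the log2 ratios the ranges in MMT against control were -1.86 to 0.79 for the miR-204 arms, -1.05 to 0.21 for the miR-211 arms and -0.0031 to 1.87 for miR-211-5p to miR-204-5p. In MMT against MnCl2 they were -0.51 to 2.14, -0.30 to 0.96 and -1.02 to 0.85, and -0.076 to 0.29 for the Htr2c members to miR-204-5p, which ran from -0.013 to 0.64 in MnCl2 against control. miR-204-3p and miR-211-3p rest on 2 to 15 counts per library.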

Other observations

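Among the 200 miRNAs with a mean of at least 100 CPM, a limit chosen after the values were seen, the 3 largest SDs of log2 CPM over the 9 libraries belonged to choroid plexus members. They were 1.73 for miR-1298, 1.22 for miR-448-3p and 1.18 for miR-204-5p, against a median of 0.25. Next came miR-466b-3p at 0.83 and miR-466b-5p at 0.79, then miR-1b at 0.77 and miR-34c-5p at 0.77. miR-466b-3p had a different order of libraries, with 298, 433 and 214 CPM in MMT, 487, 579 and 391 CPM in MnCl2 and 98.5, 293 and 647 CPM in control libraries.

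The vascular smooth-muscle miRNAs varied mainly through MnCl2 1. miR-145-5p was at 498, 417 and 599.7 CPM in MMT, at 1329, 455 and 491 CPM in MnCl2 and at 703, 465 and 405 CPM in control libraries. MMT 3, highest in miR-204-5p, did not stand out in miR-145-5p.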
